A study of Mus musculus with 3 samples.

Results

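The matrix metalloproteinases (MMPs) and the tissue inhibitors of metalloproteinases (TIMPs) were described in cultured mouse mesenchymal progenitors across 3 oligonucleotide arrays. The 9 genes were Mmp2, Mmp3, Mmp9, Mmp13, Mmp14, Mmp19, Timp1, Timp2 and Timp3, and their members were all probe sets that the platform annotation lists with 1 of these genes alone. This gave 19 probe sets, 9 for the 6 MMP genes and 10 for the 3 TIMP genes, of the 28898 probe sets with 1 gene and the 17097 genes on the array. The progenitors, labelled PaS+, came from bone marrow of 8-week-old mice of the strain written C56Bl/6 in the labels. They were sorted by flow cytometry and cultured in MesenCult medium, with 7 days at 1% oxygen. When fibroblast colonies had begun to appear they received a lentiviral short hairpin RNA (shRNA) overnight, and RNA was taken 4 days later. One array held cells with the control hairpin (shCTR), 1 held cells with the hairpin against HIF-1α (shHIF-1a) and 1 held cells with the hairpin against HIF-2α (shHIF-2a). All 3 groups thus shared low oxygen and lentiviral transduction, and no group at normal oxygen or without virus was analysed here. The number of animals, and how many hairpin sequences served each target, are not stated in the labels.

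MMPs are zinc-dependent endopeptidases that are made as inactive proenzymes and, once activated, cut collagens, proteoglycans and other proteins of the extracellular matrix. TIMPs are small secreted proteins that bind the active site of MMPs and block it, so matrix turnover depends on enzyme and inhibitor together. In bone marrow and bone, stromal cells make gelatinases, stromelysin and collagenase that remodel the matrix around blood and bone-forming cells.

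Each hairpin has 1 array, so the spread between cultures is unknown and nothing was tested. Values are RMA intensities, the summarised brightness of a probe set on a linear scale, and differences are on the log2 scale with no pseudocount. The brightest of the 23 nonspecific probe sets reached 3.47, and a probe set was taken as above background when it exceeded that level. Between 4143 and 4421 of 45141 probe sets per array reached 64, the intensity from which a probe set was called measured. Different probe sets of one measured gene varied with a pooled SD of 0.12 for shHIF-1a against control, 0.21 for shHIF-2a against control and 0.14 for shHIF-2a against shHIF-1a, which is a technical spread only. Hif1a did not tell the arrays with the HIF hairpins apart. The brighter Hif1a probe set read 352.1 with the control hairpin and 332.4 on both other arrays. The brighter Epas1 probe set, for HIF-2α, read 5.09 with the control hairpin, 9.44 on the array labelled shHIF-1a and 3.21 on the array labelled shHIF-2a. The arrays are therefore called by their labels, and each direction rests on them. Both comparisons with control share the 1 control array. Of 11 mesenchymal marker genes on the array, 10 exceeded that background on all 3 arrays, with Pdgfra at 38.2, 51.6 and 47.9 and Nt5e at 407.1, 457.6 and 323.7. Nes did not. The list was not uniform, since the stromal chemokine gene Cxcl12 read 249.96, 177.9 and 72.3 and Thy1 read 13.1, 12.4 and 6.72, both lowest on the array labelled shHIF-2a, whereas Cd44 read 500.5, 538.9 and 576.5.

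TIMP3 transcript was lower on the array labelled shHIF-1a than on either other array, by all 4 of its probe sets. The secreted enzymes, the collagenase gene Mmp13, the gelatinase gene Mmp2 and the stromelysin gene Mmp3, were lowest on the array labelled shHIF-2a and highest on the array labelled shHIF-1a. The membrane-bound Mmp14, by its brighter probe set, and Timp1 showed almost the same intensity on the 3 arrays. Probe sets of Timp2 and of Mmp9 did not show one pattern within the gene, and Mmp19 lay near background. In cultures, fewer cells of one kind and less RNA in each cell cannot be told apart.

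**Figure D1:**
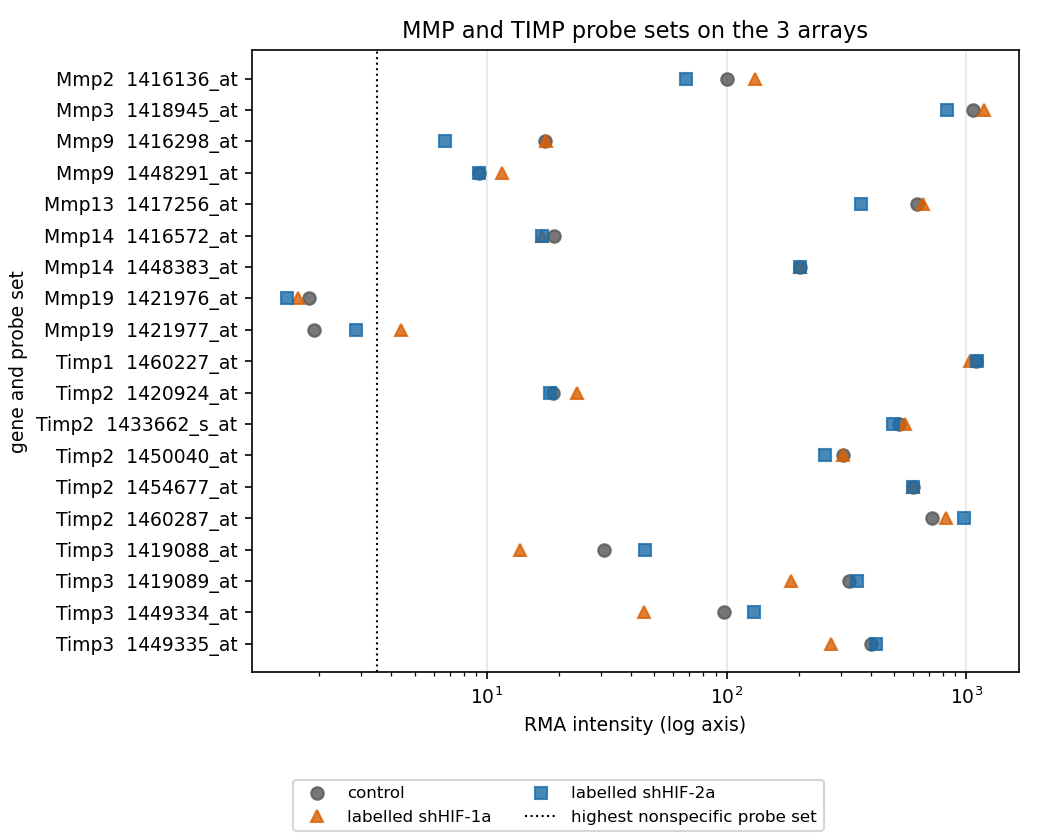
RMA intensity (log axis) of each of the 19 MMP and TIMP probe sets on the control array and on those labelled shHIF-1a and shHIF-2a, 1 point per array, with the highest nonspecific probe set (3.47) dotted. The 4 Timp3 triangles of the array labelled shHIF-1a lie to the left of the other arrays, and the Mmp13, Mmp2 and Mmp3 squares of the array labelled shHIF-2a lie to the left of theirs. Horizontal positions are to be compared within a row only.

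Of the 19 probe sets, 17 were above the nonspecific level on every array. The exceptions were both probe sets of Mmp19. Of these 17, 12 reached 64 on at least 1 array, and 1 of them, the Timp3 probe set 1449334_PM_at, did so on 2 arrays rather than 3. The median difference of the 17 was 0.01 for the array labelled shHIF-1a against control, −0.003 for the array labelled shHIF-2a against control and −0.01 between the shRNA arrays. The same medians over all 12069 probe sets above the nonspecific level on every array were 0.09, 0.12 and 0.00. These medians weigh Timp2 and Timp3 by their 9 probe sets. With 1 value a gene, the mean of its probe sets, the medians were 0.10, −0.22 and −0.31, and with its brightest probe set they were 0.05, −0.18 and −0.26. MMPs and TIMPs are described separately.

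Collagenase 3, encoded by Mmp13 (Entrez gene 17386), cuts fibrillar collagen, above all the cartilage collagen, and is made by hypertrophic cartilage, osteoblasts and stromal fibroblasts. Its probe set read 622.7 on the control array, 661.0 on the array labelled shHIF-1a and 362.0 on the array labelled shHIF-2a. The array labelled shHIF-2a was thus the low one, at 58.1% of control, with a log2 difference of −0.78. Of the 3579 measured probe sets, 52 (1.45%) differed from control by that much or more in the same direction. The array labelled shHIF-1a differed from control by 0.09, less than the pooled SD between probe sets.

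Stromelysin 1, encoded by Mmp3 (Entrez gene 17392), cuts proteoglycans and fibronectin and activates other proMMPs. It read 1066 on the control array, 1181 on the array labelled shHIF-1a and 832.3 on the array labelled shHIF-2a. The order of arrays was that of Mmp13, with smaller differences of 0.15 and −0.36 from control, and 6.31% of measured probe sets were as low or lower on the array labelled shHIF-2a.

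Mmp3 and Mmp13 lie in one cluster of 10 MMP genes on chromosome 9 in the RefSeq annotation. The 150 bases before their annotated starts are printed with the promoter of Timp3, the inhibitor with the opposite order of arrays, so that the windows can be set side by side. They are RefSeq sequences of build GRCm38.p6, from a table that held 6 of the 9 genes, without Mmp2, Mmp9 and Mmp19. Capitals mark the AP-1 motif TGANTCA, the motif TATAAA and the hypoxia-response cores ACGTG and GCGTG.
Mmp13 chr9:7272364-7272513 (+): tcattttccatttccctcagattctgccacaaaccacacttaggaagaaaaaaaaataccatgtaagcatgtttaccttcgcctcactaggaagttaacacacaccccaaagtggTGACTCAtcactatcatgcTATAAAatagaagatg
Mmp3 chr9:7445672-7445821 (+): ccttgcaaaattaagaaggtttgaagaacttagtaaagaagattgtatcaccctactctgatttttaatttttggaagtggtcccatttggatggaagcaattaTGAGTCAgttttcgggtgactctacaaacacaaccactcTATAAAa
Timp3 chr10:86300262-86300411 (+): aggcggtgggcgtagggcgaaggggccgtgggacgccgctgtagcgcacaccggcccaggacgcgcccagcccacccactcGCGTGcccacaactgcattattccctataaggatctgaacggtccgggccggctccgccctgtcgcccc

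Both MMP promoters held an AP-1 match, TGACTCA at −35 to −29 in Mmp13 and TGAGTCA at −46 to −40 in Mmp3, counted from the base before the annotated start as −1. Both also held TATAAA, at −16 to −11 and at −7 to −2. AP-1 and hypoxia motifs were sought on both strands and TATAAA on the gene strand, and no printed match overlapped another. Among 32851 promoter windows of the same length, 4.24% held the AP-1 motif, 4.84% held TATAAA and 0.35% held both. Neither MMP window held ACGTG or GCGTG, whereas Timp3 held GCGTG at −69 to −65, and 28.6% of all windows held one of these cores. Timp1 and Mmp14 held ACGTG on one or the other strand, Timp2 held GCGTG, and none of Mmp14, Timp1, Timp2 and Timp3 held the AP-1 motif or TATAAA. Of further motifs sought on both strands, Mmp13 held AGGAAG (19.7% of all windows) 2 times, TGTGGT (8.40%) and the interferon-stimulated response element ISRE (1.59%), Timp1 held AGGAAG and Mmp14 held TGTGGT. A match describes letters, not a bound factor. The Timp3 window was picked by its array values, and a part of these motifs in the array differences was not tested.

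The rest of the chromosome 9 cluster did not share one pattern. Mmp10, stromelysin 2, next but one to Mmp3, read 14.2 on the control array, 13.003 on the array labelled shHIF-1a and 31.95 on the array labelled shHIF-2a, so it was highest where Mmp3 and Mmp13 were lowest. Its difference of 1.17 from control passed 2-fold, as did 6.96% of probe sets above the nonspecific level on every array in that direction. The probe sets of Mmp1a, Mmp1b, Mmp7, Mmp8, Mmp12 and Mmp20 in the cluster were under the nonspecific level on all 3 arrays.

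Gelatinase A, encoded by Mmp2 (Entrez gene 17390), cuts denatured and basement-membrane collagen and is typical of stromal cells. It read 100.2 on the control array, 131.2 on the array labelled shHIF-1a and 67.4 on the array labelled shHIF-2a. These intensities lay on either side of control, at 131.0% and 67.3% of it, and were 1.95-fold apart from each other, a difference of −0.96. Against control, 99 of 3579 measured probe sets (2.77%) were as low or lower on the array labelled shHIF-2a. On the array labelled shHIF-1a 169 (4.72%) were as high or higher. In the direct comparison of the shRNA arrays, 41 (1.15%) were as low or lower on the array labelled shHIF-2a.

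Gelatinase B, encoded by Mmp9 (Entrez gene 17395), is abundant in osteoclasts and neutrophils and was dim here. Probe set 1416298_PM_at read 17.5 on the control array, 17.6 on the array labelled shHIF-1a and 6.72 on the array labelled shHIF-2a. It was 2.60-fold lower on the last, the lowest difference among the 17 probe sets in that comparison. Its other probe set, 1448291_PM_at, read 9.27, 11.6 and 9.27, with no difference between the array labelled shHIF-2a and control. The 2 probe sets therefore disagreed, by a between-probe-set SD of 0.97, and no direction is given for the gene. Markers of cells that make much Mmp9 mostly stayed at background. In the haematopoietic and macrophage list 11 of 13 genes, Ptprc, Itgam and Csf1r among them, stayed under the nonspecific level on every array, Cd14 read 93.4, 87.8 and 93.2, and Cd68 passed the level only on the array labelled shHIF-2a, at 7.24. The summed intensity of that list was 109.5, 103.4 and 113.0. In the osteoclast list Ctsk read 111.0 on each array and Acp5 at most 11.9, the other 3 genes were under the nonspecific level, and the sums were 124.4, 126.0 and 124.0.

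MT1-MMP, encoded by Mmp14 (Entrez gene 17387), is anchored in the membrane and activates proMMP2 in a complex with TIMP2. Its brighter probe set read 201.6 on the control array, 202.6 on the array labelled shHIF-1a and 201.6 on the array labelled shHIF-2a. The dimmer one read 18.99, 16.9 and 16.9. Both differences from control were at most 0.17 in size. After quantile scaling those of the dimmer probe set became −0.40 and −0.48 on the arrays labelled shHIF-1a and shHIF-2a. Those of the brighter one were then −0.03 and −0.01. Exactly equal values were common on these arrays, at 22.4%, 16.7% and 23.0% of measured probe sets in the 3 comparisons.

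Mmp19 (Entrez gene 58223), a stromelysin-like secreted enzyme, was near background. Its probe set 1421976_PM_at read 1.81, 1.63 and 1.47 on the control array and on those labelled shHIF-1a and shHIF-2a. The other, 1421977_PM_at, read 1.91, 4.39 and 2.85, so it passed the nonspecific level on the array labelled shHIF-1a alone and was at least 1.27-fold higher there than on either other array, taking 3.47 as the floor.

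Over the 7 MMP probe sets above the nonspecific level, 5 were below control on the array labelled shHIF-2a, 2 were equal to it and none was above, with a median of −0.36. Over all 12069 such probe sets 19.5% were below control there, 16.4% equal and 64.2% above. The contrast was smaller among the 3579 measured probe sets, where 32.1% were below, 16.7% equal and 51.1% above. Of the 4 measured MMP probe sets 3 were below and 1 equal. Of the 7, 1 passed 2-fold, the Mmp9 probe set, against 0.456% of all probe sets above the nonspecific level that were 2-fold lower. At 1.5-fold, 2 of the 7 were lower, against 1.65%. On the array labelled shHIF-1a 6 of 7 were above control and 1 below, with a median of 0.09, the same to 2 decimals as over all such probe sets, and the signs of 3 of the 6 (both Mmp9 probe sets and the brighter Mmp14 probe set) turned under some scalings. Of all such probe sets 63.9% were above control on that array, and of the measured ones 51.5%. Between the shRNA arrays 6 of 7 were lower on the array labelled shHIF-2a and 1 was equal, with a median of −0.50, beside 25.7% lower and 32.4% equal over all such probe sets. Of the measured ones 34.0% were lower and 23.0% equal.

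Other signals of the same arrays are given here, whether or not they moved with the MMPs. Their part in these differences was not tested. The 12 bacterial and phage hybridisation control probe sets were dimmer on the array labelled shHIF-2a, with a median of −1.02 against control and a range from −1.39 to −0.50, and were near control on the array labelled shHIF-1a, at 0.08. The 7 polyA control probe sets above the nonspecific level on every array did not share this. Their medians against control were 0.12 on the array labelled shHIF-2a and 0.26 on the array labelled shHIF-1a. The mesenchymal list summed to 1422, 1462 and 1243 on the control array and on those labelled shHIF-1a and shHIF-2a, with Cxcl12 and Thy1, given above, lowest on the last. The summed intensity of the osteoblast and chondrocyte list was 242.8, 261.5 and 105.9 on the control array and on those labelled shHIF-1a and shHIF-2a. Most of it came from Col2a1, the cartilage collagen, at 194.1, 214.8 and 63.3, while Sox9 read 37.3, 35.5 and 31.5 and the other 7 of 9 genes, Bglap, Sp7, Acan and Col10a1 among them, were under the nonspecific level. The smooth muscle list summed to 380.6, 438.6 and 241.1, nearly all from Acta2, with the other 5 of 6 genes under the nonspecific level. In the endothelial list 7 of 9 genes were under that level and the sums were 28.6, 31.8 and 31.4. The 3′ minus 5′ log2 difference of Actb, a sign of RNA integrity, was 0.47 on the control array, 0.61 on the array labelled shHIF-1a and 0.60 on the array labelled shHIF-2a. That of Gapdh was nearly the same on the 3 arrays, at 0.22, 0.25 and 0.25.

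**Figure D2:**
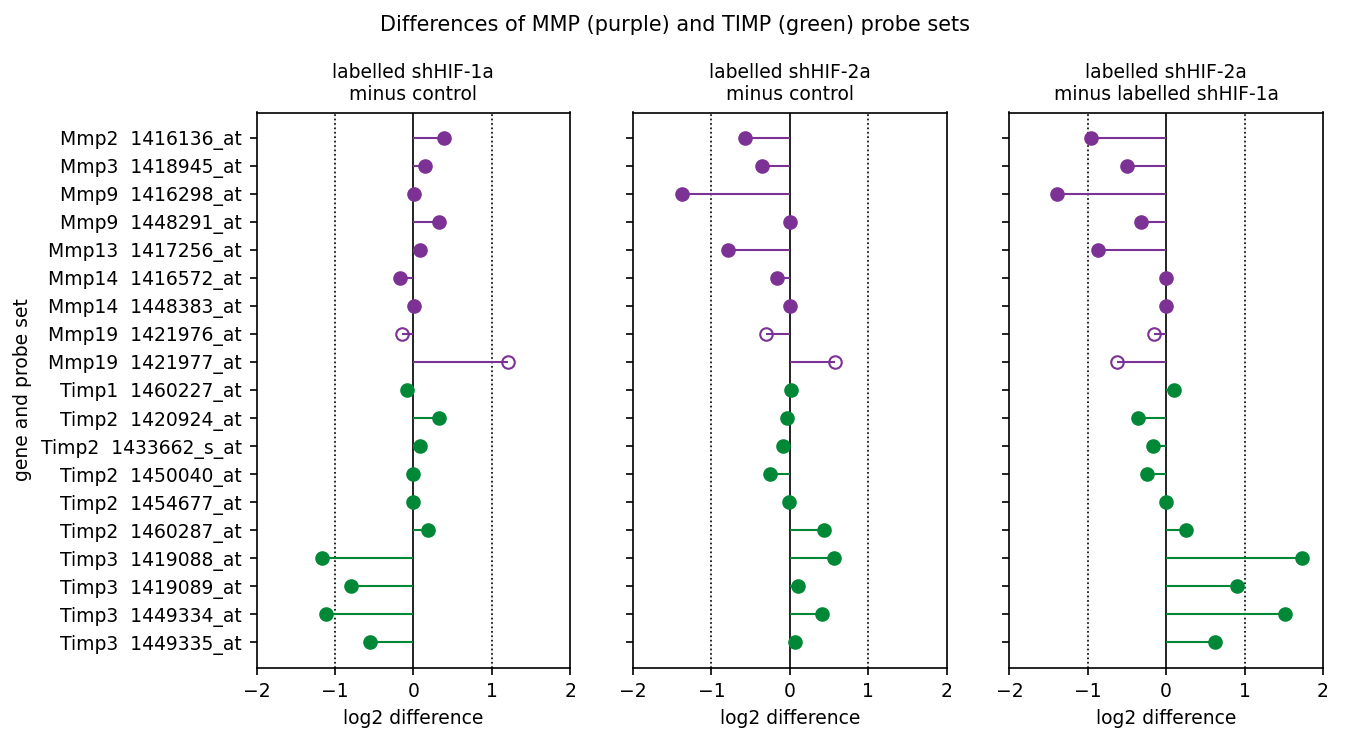
Log2 differences of the 19 probe sets in the 3 comparisons, MMPs in purple and TIMPs in green, with open points for probe sets not above the nonspecific level on all arrays and dotted lines at 2-fold. The 4 Timp3 probe sets lie left of 0 in the left panel (−1.17 to −0.55) and right of 0 in the right panel (0.62 to 1.73), and Mmp2, Mmp3 and Mmp13 lie left of 0 in the middle and right panels.

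Among the inhibitors, TIMP3, encoded by Timp3 (Entrez gene 21859), differs from the others in binding tightly to the extracellular matrix, and it also inhibits ADAM17 and aggrecanases. Its probe set 1449335_PM_at read 398.9 on the control array, 272.1 on the array labelled shHIF-1a and 418.6 on the array labelled shHIF-2a. Probe set 1419089_PM_at read 323.5, 186.2 and 349.0 in the same order. Probe set 1449334_PM_at read 97.4, 45.2 and 129.6, and probe set 1419088_PM_at read 30.9, 13.7 and 45.6. In every one of the 4 the array labelled shHIF-1a was lowest and the array labelled shHIF-2a highest.

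The differences of the array labelled shHIF-1a from control were −0.55, −0.80, −1.11 and −1.17 in that order of probe sets, so the array held from 68.2% down to 44.5% of the control intensity. The difference was larger in size the dimmer the probe set was on the control array. All 4 lie beyond the pooled SD of 0.12 between probe sets of one gene, and their own SD of 0.29 exceeds it. Differences of the array labelled shHIF-2a from control ran the same way in size, at 0.07, 0.11, 0.41 and 0.56. Those between the shRNA arrays were 0.62, 0.91, 1.52 and 1.73, or from 1.54-fold to 3.32-fold. All 4 are listed against the same transcript sequence in the platform annotation, so they are 4 readings of one transcript in the same 3 RNA samples, not replicates.

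Lower values of this size were rare on the array labelled shHIF-1a. Of the 3579 measured probe sets 1 was at least 2-fold lower than control (0.0279%), and it was Timp3 1449334_PM_at. The next lowest was Timp3 1419089_PM_at, and Timp3 1449335_PM_at was the seventh. Over the 12069 probe sets above the nonspecific level on every array, 6 (0.0497%) were at least 2-fold lower, and 2 of these belonged to Timp3. The other 4, named after their values were seen, were Cck (−1.92), 2610528A11Rik (−1.15), Krt19 (−1.10) and Akr1c18 (−1.05). Krt19 and Akr1c18 were also above control on the array labelled shHIF-2a, by 0.81 and 0.33, whereas Cck and 2610528A11Rik were below it there, by −1.20 and −0.65. With 16 or 32 added before log2 no Timp3 probe set passed 2-fold against control, and 1449334_PM_at then differed by −0.89 and −0.75. No MMP or TIMP probe set above that level was 2-fold higher than control on the array labelled shHIF-1a, where 3.63% of all were.

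On the direct comparison of the shRNA arrays 2 of the 17 MMP and TIMP probe sets were at least 2-fold higher with shHIF-2a than with shHIF-1a, both of Timp3, against 0.771% of probe sets above the nonspecific level. The Mmp9 probe set was the 1 that was 2-fold lower, against 0.713%. Among measured probe sets 5 of 3579 were as high as Timp3 1449334_PM_at or higher. The hybridisation controls lay at a median of −1.09 in this comparison and the polyA controls at −0.01. The part of either in the Timp3 difference was not tested.

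**Figure D3:**
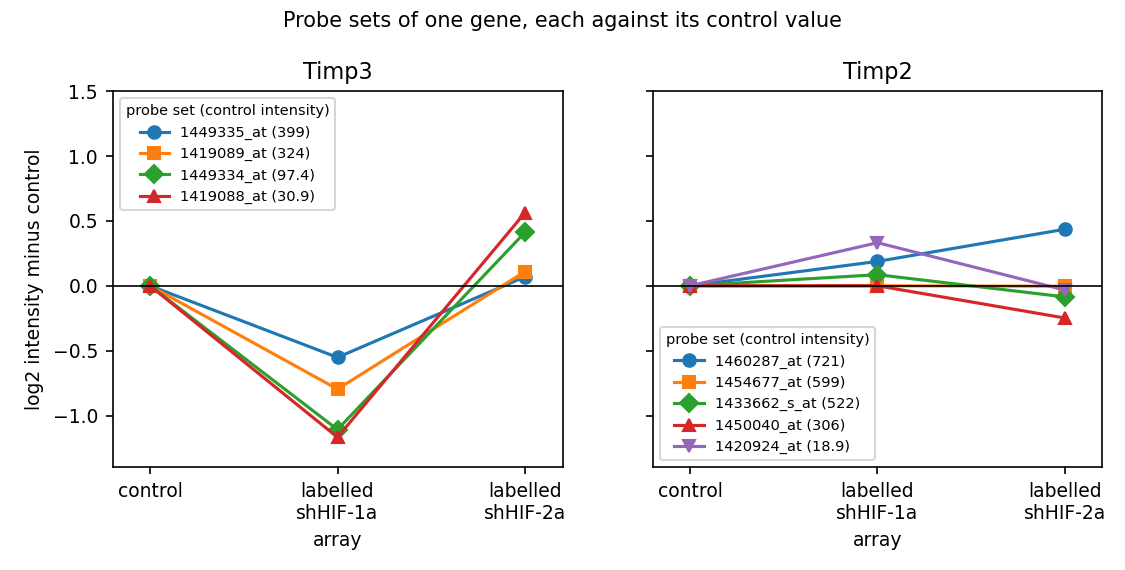
Log2 intensity of each Timp3 (left) and Timp2 (right) probe set minus its own control value on the 3 arrays, with the control intensity in brackets in the key; lines join the readings of one probe set and imply no order. All Timp3 lines dip at the array labelled shHIF-1a, to between −0.55 and −1.17, whereas Timp2 lines spread from −0.25 to 0.44 at the array labelled shHIF-2a.

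Timp2 (Entrez gene 21858), whose product both inhibits MMPs and helps MT1-MMP to activate proMMP2, had 5 probe sets that did not run together. Probe set 1460287_PM_at read 721.2, 821.5 and 975.6 on the control array and on those labelled shHIF-1a and shHIF-2a, so it was highest on the last, by 0.44. Probe set 1450040_PM_at read 305.8, 305.8 and 257.4, and was lowest there, by −0.25. Probe set 1454677_PM_at stayed within 597.4 to 598.7, and 1433662_PM_s_at, whose name marks probes shared between transcripts, read 522.2, 554.1 and 492.1. The dim 1420924_PM_at read 18.9, 23.7 and 18.4. On the array labelled shHIF-2a 4 of 5 were below control and 1 above, with an SD between probe sets of 0.25 about a median of −0.03. No direction is given for Timp2.

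Timp1 (Entrez gene 21857), the inducible secreted inhibitor of stromal cells, read 1099 on the control array, 1039 on the array labelled shHIF-1a and 1112 on the array labelled shHIF-2a. The 3 values were within 1.07-fold of each other, and both differences from control, −0.08 and 0.02, changed sign under another scaling. Timp1 lies within the gene Syn1 on chromosome X and Timp3 within Syn3 on chromosome 10 in the RefSeq annotation. The 4 probe sets of these synapsin genes were under the nonspecific level on every array, so the host genes gave no signal beside the inhibitors.

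**Figure D4:**
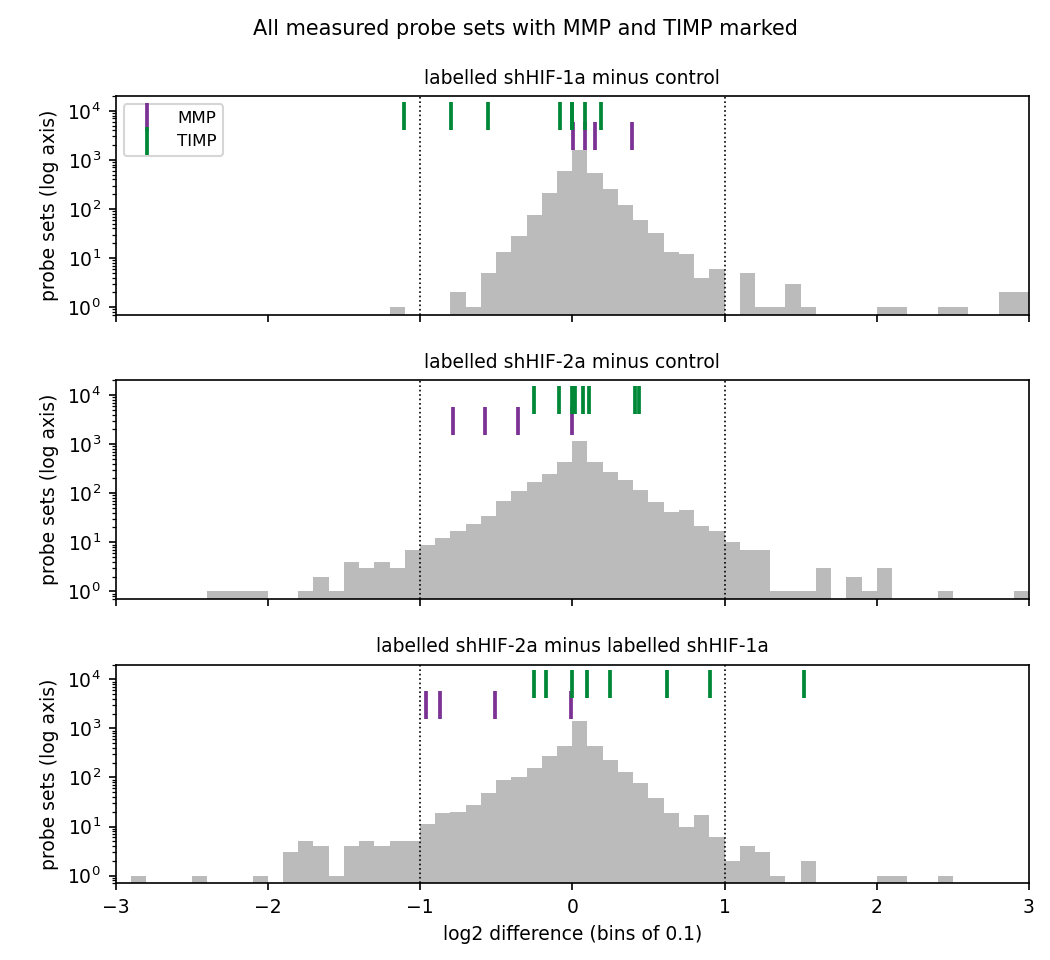
Histogram (bins of 0.1, log count axis, shown from −3 to 3 although a few differences lie beyond) of the log2 differences of all 3579 measured probe sets in the 3 comparisons, with ticks for the 12 measured MMP (purple) and TIMP (green) probe sets and dotted lines at 2-fold. In the top panel the leftmost tick, Timp3 at −1.11, is the lowest of all measured probe sets.

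The wider set of genes around MMP activity was described from 6 lists. Of 124 further genes (other MMPs with Timp4, activators and membrane regulators of MMPs, ADAM and ADAMTS proteases, transcription factors known at MMP promoters, inducing cytokines with their receptors, and matrix substrates), 107 were on the array and 42 were measured. Against control, 21 of the 42 were above, 9 below and 12 equal on the array labelled shHIF-1a and 9 above, 24 below and 9 equal on the array labelled shHIF-2a. The medians were 0.01 and −0.11, beside 0.01 and 0.02 over all 2738 measured genes. None of the 42 passed 2-fold on the array labelled shHIF-1a, where 29 of the 2738 were higher and 0 lower. On the array labelled shHIF-2a 2 of the 42 were 2-fold lower, both matrix substrates, and none higher, beside 23 lower and 46 higher of the 2738.

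Among other MMPs only Mmp23, a membrane-type enzyme, was measured, at 84.6, 95.3 and 63.3 on the control array and on those labelled shHIF-1a and shHIF-2a, the same order as Mmp13, Mmp2 and Mmp3. In the list of activators and membrane regulators the 10 measured genes had medians of 0.00 in all 3 comparisons. Tfpi2, a matrix-bound serine protease inhibitor, stayed under 64 but read 19.8, 29.0 and 56.1, a log2 difference of 1.501 from control on the array labelled shHIF-2a. Of all probe sets above the nonspecific level on every array, 6.96% were 2-fold higher there. The measured differences from control on that array ran from −0.58 to 0.42. At the low end was Lrp1, an endocytic receptor that takes up proteases, at 127.8, 127.8 and 85.4, and at the high end the urokinase receptor gene Plaur, at 62.9, 68.0 and 84.3.

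Of ADAM and ADAMTS proteases 6 were measured, with medians of 0.00 on the array labelled shHIF-1a and −0.06 on the array labelled shHIF-2a. The aggrecanase gene Adamts5 read 101.3, 111.2 and 61.0, and Adam17, an enzyme that TIMP3 inhibits, read 103.7 on each array. Adamts4, Adamts9 and Adamts12 passed 2-fold somewhere but were dim. Adamts4 read 2.32, 5.34 and 5.34 and was at least 1.54-fold higher on each shRNA array than on control. Adamts9 read 2.85, 9.05 and 4.86 and was at least 2.61-fold higher on the array labelled shHIF-1a. Adamts12 read 8.19, 10.4 and 4.61, 2-fold lower on the array labelled shHIF-2a than on that labelled shHIF-1a. Between those arrays 0.713% of probe sets above the nonspecific level on every array were 2-fold lower. With no minimum intensity, 884 of 28898 probe sets were 2-fold higher than control on the array labelled shHIF-1a and 1522 on the array labelled shHIF-2a.

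Transcription factors known at MMP promoters had 10 measured genes and none past 2-fold, with medians of 0.03 and 0.00 against control. Runx1 read 52.4, 64.3 and 34.3 and had the largest difference in size on the array labelled shHIF-2a, −0.61. Among AP-1 subunits, Fos read 116.2, 137.1 and 89.2, Fosl1 read 98.5, 122.0 and 139.2, Jun lay between 139.7 and 148.0, and Jund and Fosl2 were equal on all arrays, at 340.9 and 267.1. Subunits of AP-1 thus did not share one order of arrays.

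The 5 measured cytokines and receptors that induce MMPs were above control on the array labelled shHIF-1a in 5 of 5 cases and above it in 2 of 5 on the array labelled shHIF-2a, with medians of 0.17 and −0.19. With the mean of a gene's probe sets above the nonspecific level in place of its brightest, the medians were 0.23 and 0.05. The sign on the array labelled shHIF-2a thus depended on that choice. Of all 2738 measured genes 1415 were above control on the first array and 1445 on the second. Il6 read 453.5, 532.3 and 474.9 and the oncostatin M receptor gene Osmr 199.6, 203.5 and 157.6. Below 64, the alarmin gene Il33 read 4.70, 14.0 and 22.5. It was past 2-fold above control on the arrays labelled shHIF-1a and shHIF-2a. Of probe sets above the nonspecific level on every array, 3.63% and 6.96% were so. Tgfb1 was close to the nonspecific level at 1.65, 3.20 and 3.75. The matrix substrates were below control on the array labelled shHIF-2a in 10 of 10 cases, with a median of −0.39, and below it in 5 of 10 on the array labelled shHIF-1a. Of all measured genes 838 of 2738 were below control on the array labelled shHIF-2a and 705 on the array labelled shHIF-1a. Past 2-fold were Col1a1, at 130.4, 126.9 and 48.1, and Col2a1, given above.

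**Figure D5:**
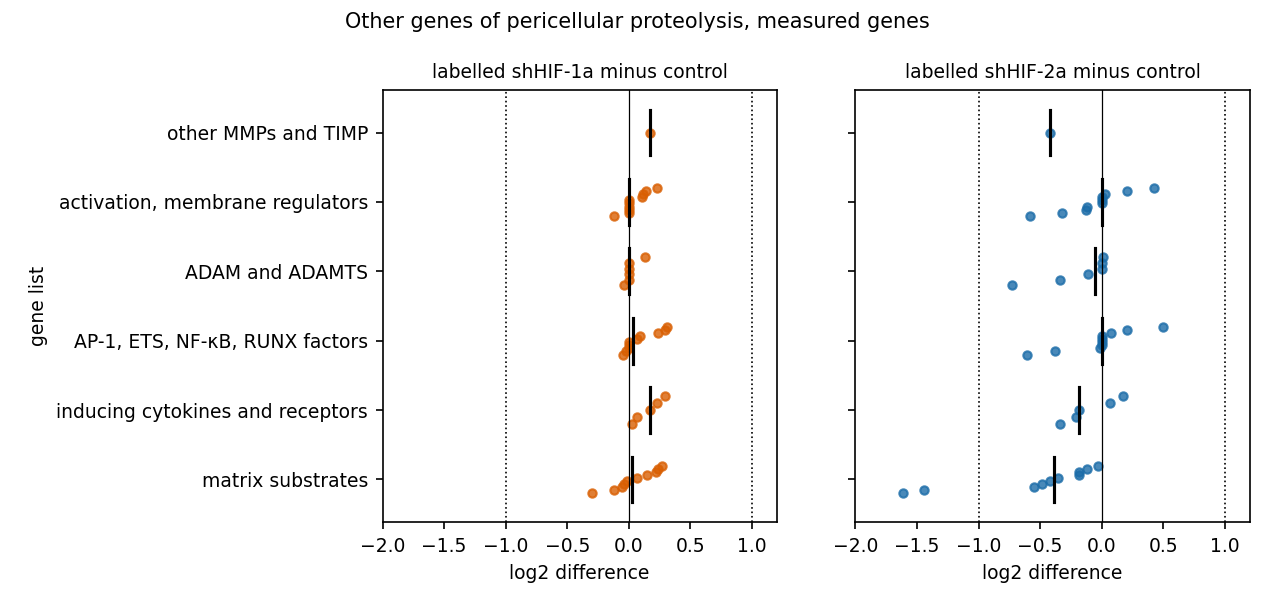
Log2 differences from control of the 42 measured genes of 6 lists on the arrays labelled shHIF-1a (orange) and shHIF-2a (blue), 1 point per gene, with a bar at each list's median and dotted lines at 2-fold. The matrix substrates lie left of 0 on the array labelled shHIF-2a, with a median of −0.39, and Col2a1 and Col1a1 lie past −1.

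Likeness of pattern was measured as the distance between a pair of genes in their 2 log2 differences from control, each gene by its brightest probe set, over 2738 measured genes and 3 arrays. For the brighter Mmp9 probe set the nearest were Meg3 (0.03), Col1a1 (0.08) and Cp (0.16). That probe set stayed under 64 and the other Mmp9 probe set disagreed with it, so this likeness is of a dim reading and not of the gene. For Mmp13 the nearest were Clmp (0.07), Adamts5 (0.07) and Col6a1 (0.09).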

How the data were processed

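The 3 oligonucleotide arrays, 1 per hairpin, were grouped by their titles in the labels. Per the labels' protocols, each array used 1 µg of RNA. The authors deposited RMA intensities, per the submitters' processing notes, which give no version or setting for RMA. The values are linear, from 0.63 to 1747. Signal over background stands in for depth, and with so few arrays the precision is limited.

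Log2 of the deposited intensities was taken without scaling. Probe sets were named from the platform annotation, with symbols updated by Entrez identifier for 28689 of 28898 probe sets with 1 gene (RefSeq table of GRCm38.p6). Those with several genes (551), unlisted ones (15588) and controls (104) were left out. A gene was represented by its brightest probe set. The size rule was 2-fold, with no test. Named genes were all members, Hif1a and Epas1, list genes past 2-fold or otherwise the 2 largest against control, and the 3 nearest genes, left out for Mmp19 because it lay under background on 2 arrays. Further list genes and markers were named after their values were seen. Members and lists were chosen with earlier results of these data known. Counting was tested on simulated data. Alternatives were centring, cyclic loess and quantile scaling (limma 3.58.1, R 4.3.3), 16 or 32 added before log2, a floor, other minimums, 1.5-fold, and other summaries of a gene's probe sets. Python 3.11.15 and pandas 2.3.3 were used.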

Additional observations from a re-analysis of the deposited data

How the results depend on the processing

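Timp3 was below control on the array labelled shHIF-1a and above it on the array labelled shHIF-2a in all 4 probe sets under each of 6 settings of scaling, pseudocount and floor, and Mmp2, Mmp3 and Mmp13 kept their signs in all 3 comparisons. Adding 16 or 32 before log2 took the count of MMP and TIMP probe sets 2-fold lower than control from 2 to 0 on the array labelled shHIF-1a and from 1 to 0 on the array labelled shHIF-2a. The median difference moved with 1 value a gene, to −0.22 (shHIF-2a against control) and −0.31 (between shRNA arrays) with the mean of its probe sets, and to −0.26 (between shRNA arrays) with its brightest, since Timp2 and Timp3 then count once each. Probe sets past 2-fold, 32, 85 and 54 for shHIF-1a against control, shHIF-2a against control and the direct comparison, became 13, 45 and 33 with a mean of at least 64 over the arrays, 247, 543 and 170 with a minimum of 16, 1004, 1699 and 307 with none, 77, 278 and 191 at 1.5-fold and 16, 41 and 23 with 32 added. Against control on the array labelled shHIF-2a the split of 56 higher and 29 lower became 47 and 37 after cyclic loess. Brightness limits Mmp9, Mmp19 and Mmp10. No paired analysis was possible because each group has 1 array.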
